A study of Homo sapiens with 8 samples.

Results

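The 8 genes described here encode parts of the gp130 cytokine pathway: the ligands IL11 (interleukin 11) and LIF (leukaemia inhibitory factor), the receptor chains IL6R, IL6ST, LIFR and OSMR, the transcription factor STAT3 and its feedback inhibitor SOCS3. They were chosen by name, with earlier results of these data known, and IL11 and IL6R were picked for their changes between substrates. The levels of IL11 and IL6R between substrates are therefore given as a description, with no test. Only the shares of their transcripts were tested. These shares enter the length correction of the normalised counts, so they are not fully separate from the choice. All 8 passed the filter on low counts and were among the 18201 genes tested, out of 58217 genes to which at least 1 deposited transcript could be assigned.

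The cells were oligodendrocyte progenitor cells (OPCs) derived from the established human embryonic stem cell line H9, so all libraries share 1 genetic background, and no SOX10 was forced into them. They were kept for 2 days in OPC medium on 1 of 3 coatings: Matrigel, a basement membrane extract that served as the control (2 libraries, replicates 2 and 3); full-length recombinant vitronectin, called VN (3 libraries); or VNP2, a designed peptide from vitronectin that contains the RGD integrin-binding motif and is fused to a mussel adhesive protein (3 libraries). The listed components of the medium include no gp130 cytokine. Nothing in the labels says whether replicates came from separate differentiations, so the p-values below measure the spread between these libraries, which may be technical.

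Cytokines of this family bind a ligand-specific chain, such as IL6R for interleukin 6, IL11RA for interleukin 11, or LIFR and OSMR for LIF and oncostatin M, and this brings in the shared chain gp130, encoded by IL6ST. JAK kinases carried by gp130 phosphorylate STAT3. STAT3 then enters the nucleus and turns on genes that include SOCS3, whose protein binds gp130 and JAKs and shuts the signal off. In the nervous system LIF and its relatives are known for driving astrocyte formation from progenitors and for supporting the survival of oligodendrocytes.

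The libraries held 37997896 to 39429453 estimated counts. VN replicate 1 stood apart from the other VN libraries: the median over genes of the chi-square between replicates was 2.35 and 2.75 for its pairs, against 0.712 to 1.19 in all other replicate pairs, where sampling noise alone gives 0.455. Of 6 OPC markers, OLIG1, OLIG2, NKX2-2, PDGFRA and CSPG4 passed the filter, while SOX10 had 0 to 5 estimated counts per library. These are bulk libraries, in which fewer cells of a type and less RNA per cell cannot be told apart.

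IL11 lies on chromosome 19 (55364389 to 55370463, minus strand, GRCh38) and encodes a secreted cytokine that signals through IL11RA and gp130. The deposited normalised counts, which correct for library size and transcript length, were 651 and 752 in the Matrigel libraries. On VN they were 91.4, 74.6 and 133, and on VNP2 they were 86.4, 70.5 and 49.2. Every VN and VNP2 library thus lay far below both Matrigel libraries, while the VN and VNP2 libraries overlapped. The fitted log2 difference was -2.83 ± 0.22 (SE) for VN minus Matrigel, or 7.09-fold lower, and -3.35 ± 0.23 for VNP2 minus Matrigel, or 10.2-fold lower. IL11 had the 26th lowest log2 difference of 18201 genes on VN and the 33rd lowest on VNP2, which restates why it was picked. Between VNP2 and VN the log2 difference was -0.52 ± 0.24.

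Since IL11 had the largest differences of the 8 genes, the 250 bases before its RefSeq start are shown, from the minus strand of GRCh38.p14 (chr19:55370464-55370713). Capitals mark the 1 match to TGANTCA, the sequence bound by AP-1, a dimer of FOS and JUN family proteins. The match begins 96 bases before the start.
IL11: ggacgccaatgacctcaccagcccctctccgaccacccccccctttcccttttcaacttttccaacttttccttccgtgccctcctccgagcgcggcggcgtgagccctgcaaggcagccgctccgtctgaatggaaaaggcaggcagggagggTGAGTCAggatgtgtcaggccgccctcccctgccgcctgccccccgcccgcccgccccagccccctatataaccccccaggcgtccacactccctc

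LIFR, the only one of the 6 tested members that was higher on VNP2 than on Matrigel, held the sequence TTCNNNGAA, to which STAT proteins bind, in 2 of its 3 RefSeq start windows. The matches, in capitals, begin 165 and 182 bases before their starts (GRCh38.p14, minus strand, chr5:38595537-38595595 and chr5:38557616-38557674).
LIFR start 1: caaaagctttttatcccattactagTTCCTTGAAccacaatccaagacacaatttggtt
LIFR start 2: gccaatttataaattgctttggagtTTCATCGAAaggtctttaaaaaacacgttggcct

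Both strands were covered, since each motif is its own reverse complement, and the motifs do not overlap each other. Of all 35116 RefSeq start windows of this length, 6.57% held TTCNNNGAA and 6.57% held TGANTCA. Neither motif was found in the windows of IL6R, IL6ST, OSMR, STAT3 and SOCS3. The SOCS3 windows were chr17:78360926-78361175 and chr17:78359668-78359917. They leave out the bases directly before 78360077, the upstream end of the gene as placed below, so that stretch was not searched. LIF had no window in the table used. A match describes these letters and does not show binding.

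**Figure D1:**
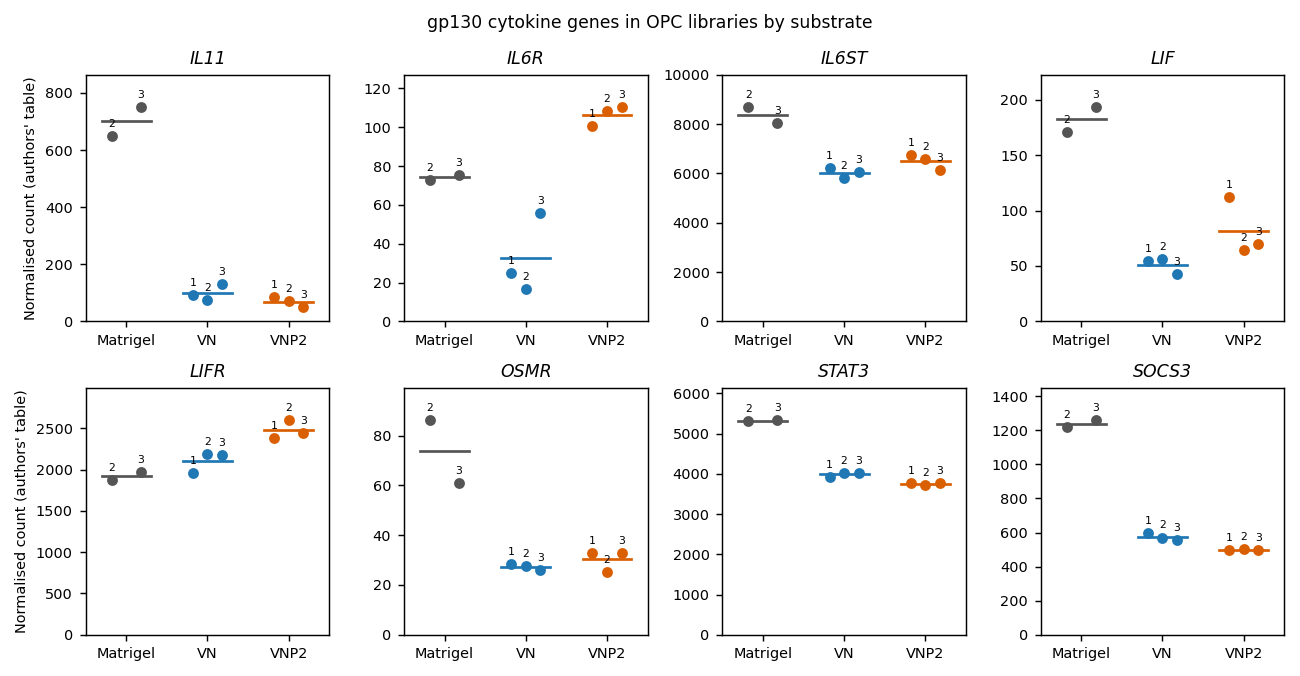
Normalised counts from the authors' table (y axis, starting at 0) of the 8 genes in each library, by substrate (x axis). Each point is 1 library with its replicate number, and each line is the mean of 2 (Matrigel) or 3 (VN, VNP2) libraries. The VN and VNP2 libraries lie below both Matrigel libraries for IL11, IL6ST, LIF, OSMR, STAT3 and SOCS3, IL6R is lowest on VN and highest on VNP2, and LIFR is highest on VNP2.

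LIF (chromosome 22, 30240447 to 30246851, minus strand) encodes a cytokine that signals through LIFR paired with gp130. The normalised counts of LIF were 171 and 194 on Matrigel. The VN libraries had 54.3, 56.2 and 42.7, and the VNP2 libraries 112, 64.5 and 69.4. Before correction for library size and length, the VNP2 libraries had 87, 70 and 79 estimated counts of LIF, closer together than after it. Both Matrigel libraries were above all others, and each VNP2 library was above each VN library. LIF fell by 1.83 ± 0.23 (SE) on the log2 scale on VN (edgeR's quasi-likelihood F test, p adjusted by Benjamini-Hochberg over all genes = 0.000524) and by 1.17 ± 0.23 on VNP2 (edgeR, adjusted p = 0.00538). The second call was lost without Matrigel replicate 3, where LIF differed by -1.07 (edgeR, adjusted p = 0.0565). The VNP2 minus VN difference was 0.66 ± 0.22 and did not pass (edgeR, adjusted p = 0.134), with a 95% interval of 0.22 to 1.10 before adjustment.

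The receptor chains did not move as one. IL6R (chromosome 1, 154405193 to 154469450, plus strand) encodes the interleukin 6 binding chain. Matrigel libraries had 72.9 and 75.4 normalised counts of IL6R. There were 25.1, 16.8 and 55.8 on VN and 101, 108 and 111 on VNP2. The 3 groups did not overlap, with VN lowest and VNP2 highest. The log2 difference was -1.31 ± 0.35 for VN minus Matrigel, 0.52 ± 0.32 for VNP2 minus Matrigel and 1.83 ± 0.32 for VNP2 minus VN, and the last ranked 34th highest of 18201 genes.

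VN replicate 3 set much of the IL6R spread. Its estimated counts before length correction were 33, beside 30 and 20 in the other VN libraries, 78 and 88 on Matrigel and 101 to 107 on VNP2. In that library 1.92 estimated counts went to IL6R-206, a short annotated transcript that had 0 in the other 7 libraries, and this transcript took 0.273 of the gene's 0.521 TPM (transcripts relative to all transcripts in the library, corrected for length). Without length correction the log2 differences were -1.61 for VN minus Matrigel and 1.90 for VNP2 minus VN. Without VN replicate 3 they were -1.82 and 2.34.

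IL6ST (chromosome 5, 55935095 to 55994993, minus strand) encodes gp130 itself. Its deposited normalised counts were 8706 and 8037 for Matrigel, 6217, 5815 and 6077 for VN, and 6748, 6598 and 6149 for VNP2. Both Matrigel libraries were above all others, by a smaller margin than for the ligands. On these deposited values IL6ST fell by 0.47 ± 0.05 (SE) on the log2(value + 1) scale on VN (limma, adjusted p = 8.66e-05) and by 0.37 ± 0.05 on VNP2 (limma, adjusted p = 0.000436). These calls held in 9 further limma fits added after seeing the data, without each library in turn and with a replicate block, in which the adjusted p reached at most 0.00421 for VN and 0.0152 for VNP2.

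The count fit covered IL6ST only in part, because the transcripts that could be assigned to genes held 24.7% of the level in the authors' table. On that part, IL6ST fell by 0.37 ± 0.09 on VN (edgeR, adjusted p = 0.0179) and by 0.35 ± 0.09 on VNP2 (edgeR, adjusted p = 0.0208). Both edgeR calls were lost without Matrigel replicate 2, with adjusted p = 0.165 and 0.196. The VN call was also lost without VN replicate 2 (edgeR, adjusted p = 0.0604), and the VNP2 call without VNP2 replicate 3 (edgeR, adjusted p = 0.0538). Without length correction the log2 differences were -0.14 on VN and -0.34 on VNP2, and neither passed. VNP2 and VN did not differ detectably, at 0.02 ± 0.08 by edgeR (adjusted p = 0.925) and 0.11 ± 0.05 by limma (adjusted p = 0.26).

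LIFR (chromosome 5, 38474963 to 38608354, minus strand) encodes the chain that binds LIF, and it was the 1 member among the 6 tested that was higher on VNP2 than on Matrigel. The Matrigel libraries held 1873 and 1970 normalised counts, the VN libraries 1960, 2189 and 2173, and the VNP2 libraries 2379, 2600 and 2444. Each VNP2 library exceeded every other library, while VN overlapped Matrigel. LIFR rose by 0.37 ± 0.06 on the log2 scale on VNP2 against Matrigel (edgeR, adjusted p = 0.00254). On VN it differed by 0.14 ± 0.06 (edgeR, adjusted p = 0.170), and without VN replicate 1 by 0.19 (edgeR, adjusted p = 0.037). The VNP2 minus VN difference of 0.23 ± 0.05 passed narrowly (edgeR, adjusted p = 0.04). It did not pass in 7 of the 8 fits that left out 1 library, all but the one without VN replicate 1, with log2 differences of 0.18 to 0.26 over the 8.

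OSMR (chromosome 5, 38845858 to 38945596, plus strand) encodes the oncostatin M receptor chain and was one of the least abundant of the 8. Matrigel gave 86.2 and 61.1 normalised counts, VN gave 28.4, 27.6 and 26.2, and VNP2 gave 32.7, 25.2 and 33. Before correction for library size and length, the estimated counts of OSMR were 68 in each Matrigel library, 26 to 36 on VN and 23 to 31 on VNP2. The gap between the 2 Matrigel values thus came with the correction. Both Matrigel libraries were well above the 6 others, and VN and VNP2 overlapped. OSMR fell by 1.41 ± 0.24 on the log2 scale on VN (edgeR, adjusted p = 0.003) and by 1.28 ± 0.24 on VNP2 (edgeR, adjusted p = 0.00434). The VNP2 call was lost without Matrigel replicate 2, where the difference was -1.02 (edgeR, adjusted p = 0.0561). The gene RICTOR overlaps OSMR on the opposite strand, with 14929 estimated counts over the 8 libraries against 314 for OSMR, and the sources used here do not state whether the counting used strand. RICTOR itself had log2 differences of 0.13 ± 0.09 on VN (edgeR, adjusted p = 0.382) and 0.08 ± 0.09 on VNP2 (edgeR, adjusted p = 0.638).

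STAT3 (chromosome 17, 42313324 to 42388568, minus strand), the transcription factor downstream of gp130, had the smallest SE of the 8. Normalised counts of STAT3 were 5315 and 5338 for Matrigel, 3913, 4032 and 4028 for VN, and 3772, 3711 and 3772 for VNP2. The 3 groups did not overlap, in the order Matrigel, VN, VNP2. STAT3 fell by 0.41 ± 0.03 on the log2 scale on VN (edgeR, adjusted p = 3.1e-05) and by 0.50 ± 0.03 on VNP2 (edgeR, adjusted p = 4.67e-06). The step from VN to VNP2, at -0.09 ± 0.03, did not pass (edgeR, adjusted p = 0.140).

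SOCS3 (chromosome 17, 78356778 to 78360077, minus strand), which STAT3 induces and whose protein inhibits gp130 signalling, had the smallest adjusted p of the tested members. The 2 Matrigel libraries had 1218 and 1260 normalised counts, against 599, 571 and 556 for VN and 499, 503 and 496 for VNP2. Again no library of 1 group overlapped another group. The log2 difference from Matrigel was -1.10 ± 0.06 on VN, or 2.15-fold lower (edgeR, adjusted p = 1.42e-06), and -1.31 ± 0.06 on VNP2, or 2.48-fold lower (edgeR, adjusted p = 2.64e-07). The VNP2 minus VN difference of -0.21 ± 0.06 did not pass (edgeR, adjusted p = 0.07). Without 1 library the SOCS3 difference from Matrigel stayed between -1.13 and -1.08 on VN and between -1.33 and -1.28 on VNP2.

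**Figure D2:**
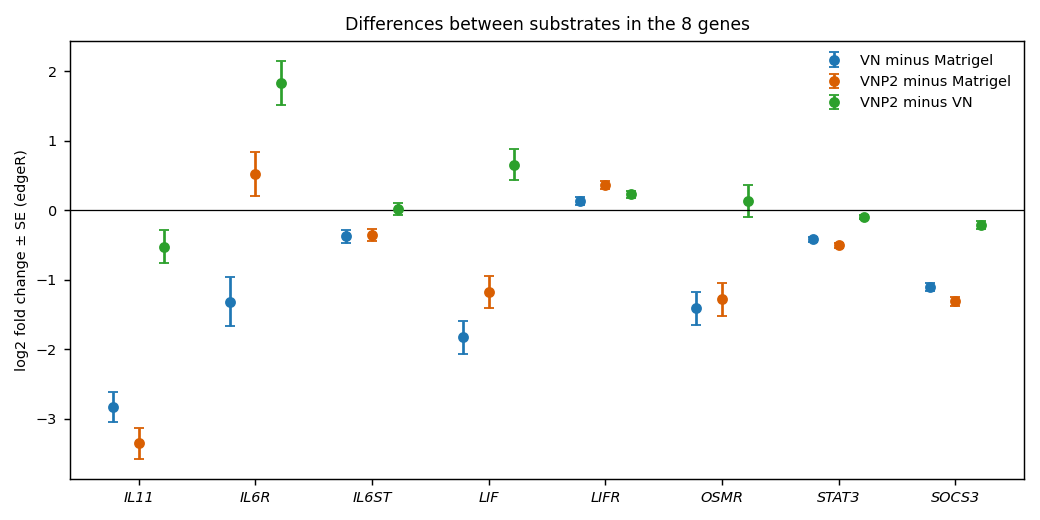
Fitted log2 fold change with its SE (y axis) of the 8 genes (x axis) for the 3 comparisons, from the edgeR fit on all 8 libraries. IL11, LIF, OSMR and SOCS3 lie below -1 on both VN and VNP2 against Matrigel, LIFR lies above 0, and IL6R has opposite signs on VN and VNP2. The values of IL11 and IL6R are a description, since these genes were picked for them.

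Of the 6 members that could be tested, 5 were lower on VN and none higher, where 9.41% of all tested genes were called lower and 5.81% higher. On VNP2, 5 were lower and 1 was higher, against 9.13% and 7.45% of all genes. Between VNP2 and VN, 1 was higher and none lower, against 3.07% and 2.1% of all genes. By the test across the 3 substrates, all 6 were called, beside 19.3% of all genes, and without Matrigel replicate 2 the number was 4. The VN and VNP2 comparisons share the 2 Matrigel libraries, so they are not independent of each other.

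Complete separation of the libraries was common in these data. With groups this small, 45.1% of genes had no overlap between VN and Matrigel, 48.8% between VNP2 and Matrigel and 23.8% between VNP2 and VN. Among the 6 tested members the counts were 5, 6 and 4. All VN and VNP2 libraries lay below both Matrigel libraries for 5 of the 6, beside 16.6% of all genes.

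The order of the 8 genes by level can be read per transcript length, in TPM summed over each gene's transcripts. On Matrigel it ran STAT3 (51.1 ± 0.396, SD, n = 2), IL6ST (41.9 ± 3.41), SOCS3 (20.9 ± 0.607), IL11 (16.2 ± 1.74), LIFR (11.1 ± 0.449), LIF (2.12 ± 0.199), OSMR (0.798 ± 0.189) and IL6R (0.648 ± 0.0182). IL6ST is a lower bound here, since only part of its transcripts could be assigned, so its place relative to STAT3 cannot be read from these values. Apart from that pair, no neighbours in this order overlapped in the 2 Matrigel libraries.

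On VN the order changed at the middle: LIFR, at a mean of 12.9 TPM, was above SOCS3 at 10.3 and IL11 at 2.44. OSMR (0.314 ± 0.00953 TPM, SD, n = 3) and IL6R (0.302 ± 0.193 TPM) overlapped on VN. On VNP2 the mean levels were 14.96 TPM for LIFR, 8.81 for SOCS3 and 1.67 for IL11. LIF (0.999 ± 0.315 TPM, SD, n = 3) overlapped both IL11 above it and IL6R (0.975 ± 0.0502 TPM) below it, and OSMR was lowest at 0.344 TPM. IL11 thus stood above LIFR on Matrigel and well below it on the other coatings.

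**Figure D3:**
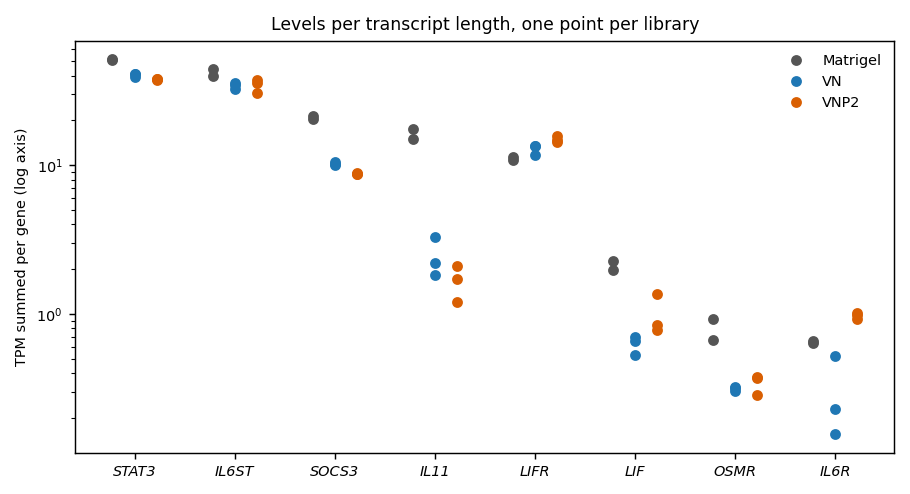
TPM summed per gene (y axis, log scale) of the 8 genes, ordered by their level on Matrigel (x axis), with 1 point per library coloured by substrate. STAT3 and IL6ST are the most abundant on every substrate, IL11 lies above LIFR on Matrigel and below it on VN and VNP2, and the IL6ST values cover only part of its transcripts.

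Transcript shares within the genes were compared in 7 members, those with at least 2 coding transcripts above 5% of the gene's TPM. SOCS3 has a single transcript. The share tested was that of the most abundant coding transcript. For IL6ST this was IL6ST-201, at 18.9% of the TPM of the assigned transcripts, which held only 24.7% of the gene's deposited level and were mostly a retained-intron transcript (61.5%). In no gene did the tested share differ detectably between substrates by the exact permutation test over 560 assignments, one-sided, whose smallest possible p is 0.00357. The lowest p was 0.104, for IL11-201 (adjusted over the 7 genes, 0.488), with shares of 74.1% ± 3.37 (SD, n = 2) on Matrigel, 73.9% ± 13.5 (n = 3) on VN and 91.9% ± 1.08 (n = 3) on VNP2. Without VN replicate 3 the exact permutation p was 0.00952, the smallest possible with those 7 libraries and not adjusted over the genes.

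STAT3-201, which encodes the full-length protein of 770 residues, made up 72.9%, 70.4% and 72.2% of STAT3 TPM on Matrigel, VN and VNP2. A transcript that encodes 722 residues, the length of the shorter beta form with another C-terminus, held 6.64%, 6.72% and 6.56%. For IL6R, the membrane form IL6R-202 (468 residues) held 539 of the estimated counts over all libraries. IL6R-201 (365 residues), the spliced form that is secreted, had 16.4. For LIFR, the transcripts LIFR-201 and LIFR-202 code for 1097 residues each, and the share of LIFR-201 was 58.7% ± 7.19 (SD, n = 2), 63.5% ± 10.8 (n = 3) and 47.3% ± 6.85 (n = 3), with an exact permutation p of 0.139.

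Among the other ligands, CLCF1, a cytokine that acts through CNTFR, LIFR and gp130, was lower on both coatings. Its normalised counts were 138 ± 2.06 (SD, n = 2) on Matrigel, 87.6 ± 4.69 (n = 3) on VN and 96.4 ± 3.73 (n = 3) on VNP2. It fell by 0.65 ± 0.13 on the log2 scale on VN (edgeR, adjusted p = 0.00924) and by 0.51 ± 0.13 on VNP2 (edgeR, adjusted p = 0.024). CNTF and CTF1 did not pass in any comparison. IL6 had 11 estimated counts over the 8 libraries, with 5 and 6 in the Matrigel libraries and 0 in every VN and VNP2 library. EBI3 had 13, with 3 to 6 per library on Matrigel, 0 to 1 on VN and 0 to 2 on VNP2. OSM, IL27 and IL31 had 0 in each library, which allows up to 3 counts per library by counting error. IL6 and OSM, the ligands of IL6R and OSMR, were thus at or near 0 in these cultures.

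IL11RA, the chain that IL11 itself binds, showed no detectable difference. Its normalised counts were 369 ± 42.4 (SD, n = 2) on Matrigel, 383 ± 22.3 (n = 3) on VN and 383 ± 18.5 (n = 3) on VNP2. The 95% interval of the log2 difference was -0.13 to 0.25 on both coatings. CNTFR, the chain for CNTF and CLCF1, rose by 0.26 ± 0.05 on VNP2 against Matrigel (edgeR, adjusted p = 0.00379) and by 0.36 ± 0.04 against VN (edgeR, adjusted p = 0.000745).

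IL27RA, a gp130 partner for interleukin 27, fell by 0.47 ± 0.14 on VN (edgeR, adjusted p = 0.0425) and was higher on VNP2 than on VN by 0.50 ± 0.12 (edgeR, adjusted p = 0.0448). On VNP2 against Matrigel its difference was 0.03 ± 0.13 (edgeR, adjusted p = 0.917). VN was the lowest group for both IL27RA and IL6R. IL31RA, which pairs with OSMR, was scarce, with 38.3 ± 1.2 normalised counts (SD, n = 2) on Matrigel, 11 ± 1.79 (n = 3) on VN and 9.58 ± 5.63 (n = 3) on VNP2. Its log2 difference was -2.46 ± 0.60 on VN (edgeR, adjusted p = 0.0202) and -2.70 ± 0.61 on VNP2 (edgeR, adjusted p = 0.0121), fitted on transcripts with 78.8% of the level in the authors' table. On the authors' values it was smaller, at -1.73 ± 0.48 on VN (limma, adjusted p = 0.0351) and -2.07 ± 0.48 on VNP2 (limma, adjusted p = 0.0125).

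Of 15 signal transducers tested, STAT3 and SHC1 were called on each coating, both lower, where 9.41% of all tested genes were called lower on VN and 9.13% on VNP2. SHC1, an adaptor that links receptors to Ras, fell by 0.43 ± 0.05 on VN (edgeR, adjusted p = 0.000286) and by 0.60 ± 0.05 on VNP2 (edgeR, adjusted p = 2.07e-05). The list's median log2 difference was -0.04 on VN and -0.07 on VNP2, while the median of all tested genes was 0.0083 and 0.0030. JAK1, JAK2 and TYK2 did not pass. JAK1 and STAT2 were fitted on transcripts with 72.8% and 78.5% of their deposited levels.

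Among 15 inhibitors, 3 were lower on VN and 4 on VNP2, SOCS3 included, and none was higher. Without SOCS3 the counts were 2 and 3 of 14, beside 9.41% and 9.13% of all genes called lower. SOCS1, like SOCS3 a cytokine-induced inhibitor of JAKs, fell by 0.70 ± 0.20 on VN (edgeR, adjusted p = 0.042) and by 0.80 ± 0.20 on VNP2 (edgeR, adjusted p = 0.0211). SOCS2 was lower on VNP2 against both other groups, by 0.72 ± 0.12 from Matrigel (edgeR, adjusted p = 0.00233) and by 0.62 ± 0.11 from VN (edgeR, adjusted p = 0.00911). PTPN1, a tyrosine phosphatase, fell by 0.13 ± 0.04 on VNP2 (edgeR, adjusted p = 0.0375). SOCS7 was called lower on VN, at -0.44 ± 0.12 (edgeR, adjusted p = 0.0371), on transcripts that held 33.6% of its deposited level. In the authors' table its log2 difference was -0.02 ± 0.05 (limma, adjusted p = 0.826).

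The list of genes known as targets of STAT3 signalling had the most calls. Of 15 tested, 12 were lower on VN and 12 on VNP2, where 9.41% and 9.13% of all genes were called lower, and none was higher. Leaving out the members SOCS3, OSMR and STAT3, 9 of 12 were lower on each, with median log2 differences of -0.56 on VN and -0.49 on VNP2. Many of these genes also answer to other signals, such as growth factors and adhesion. The other listed targets, SERPINA3, GFAP, HP, CRP and LBP, were too low to test, with at most 42 estimated counts over the 8 libraries.

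FOS, a subunit of AP-1, had 194 ± 24.5 normalised counts (SD, n = 2) on Matrigel, 67.5 ± 4.3 (n = 3) on VN and 105 ± 5.45 (n = 3) on VNP2. It fell by 1.52 ± 0.14 on VN (edgeR, adjusted p = 6.68e-05) and by 0.88 ± 0.14 on VNP2 (edgeR, adjusted p = 0.00158), and was higher on VNP2 than on VN by 0.64 ± 0.14 (edgeR, adjusted p = 0.0226). PIM1, a kinase gene, had the reverse step from VN to VNP2. It fell by 0.72 ± 0.04 on VN (edgeR, adjusted p = 1.94e-06), by 0.91 ± 0.04 on VNP2 (edgeR, adjusted p = 2.64e-07) and by 0.18 ± 0.04 from VN to VNP2 (edgeR, adjusted p = 0.0209).

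A2M, a secreted protease inhibitor, fell by 2.02 ± 0.23 on VN (edgeR, adjusted p = 0.000241) and was higher on VNP2 than on VN by 1.35 ± 0.22 (edgeR, adjusted p = 0.0055). On VNP2 against Matrigel its difference was -0.67 ± 0.22 (edgeR, adjusted p = 0.0626). CEBPD, a transcription factor, was low throughout, at 19.9 ± 1.42 normalised counts (SD, n = 2) on Matrigel, 5.14 ± 1.18 (n = 3) on VN and 5.38 ± 1.56 (n = 3) on VNP2. CCND1, which encodes cyclin D1, fell by 0.39 ± 0.03 on VN (edgeR, adjusted p = 1.55e-05), by 0.51 ± 0.03 on VNP2 (edgeR, adjusted p = 1.55e-06) and by 0.11 ± 0.03 from VN to VNP2 (edgeR, adjusted p = 0.0383). The other called targets, named here after their values were seen, were JUNB, IRF1, TIMP1 and MCL1 on both coatings and BCL6 on VNP2, with log2 differences between -0.61 and -0.15.

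IL6R can be shed from the cell by the protease ADAM17, whose activity needs the iRhom proteins encoded by RHBDF1 and RHBDF2. Of the 4 genes in this group, none passed on VN and 2 were lower on VNP2, where 9.41% and 9.13% of all tested genes were called lower. RHBDF1 fell by 0.52 ± 0.10 (edgeR, adjusted p = 0.00407) and ADAM17 by 0.15 ± 0.04 (edgeR, adjusted p = 0.031). ADAM10 and RHBDF2 did not pass.

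**Figure D4:**
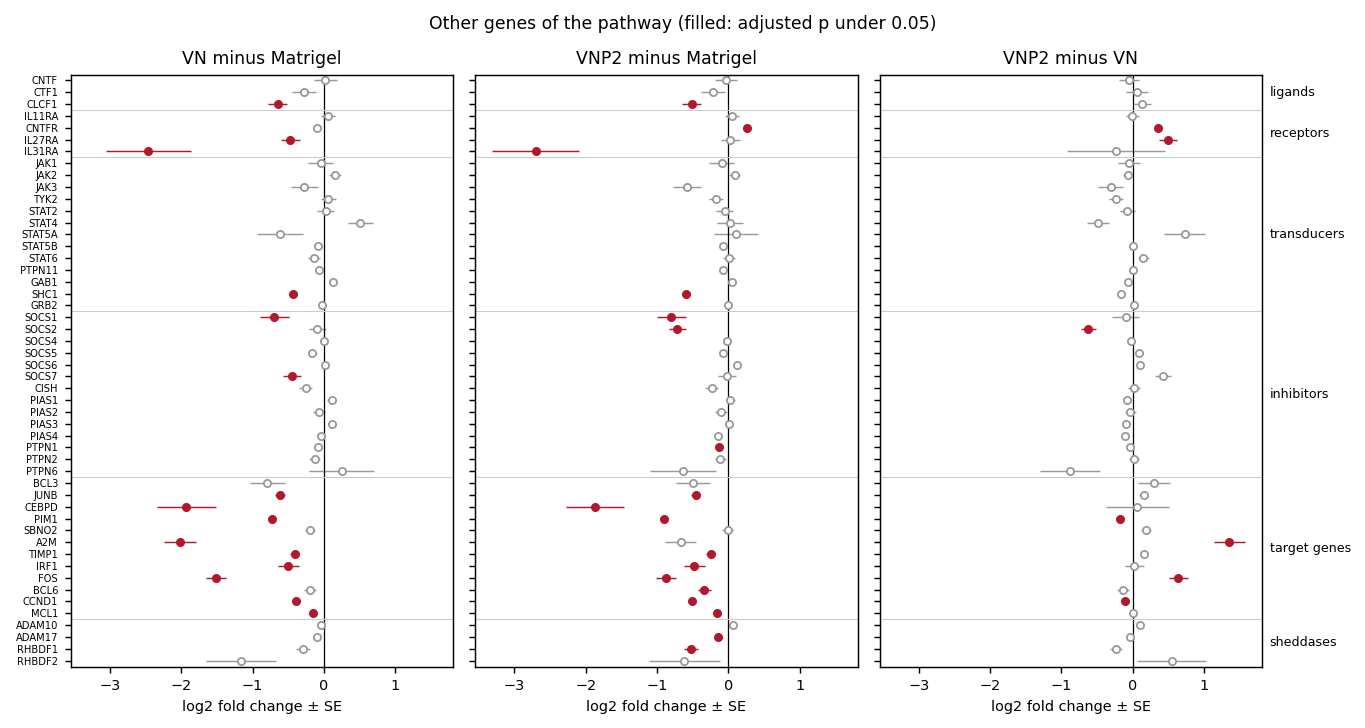
Fitted log2 fold change with its SE (x axis) of other pathway genes tested, grouped by role (y axis), in the 3 comparisons. Filled red points passed an adjusted p of 0.05 and open grey points did not. On VN 15 genes passed and all were lower, on VNP2 17 were lower and 1, CNTFR, was higher, and between VNP2 and VN 4 were higher and 3 lower. Of the 15 on VN, SOCS7 did not pass on the authors' values (limma, adjusted p = 0.826). Of all tested genes, 9.41% were lower and 5.81% higher on VN, and 9.13% lower and 7.45% higher on VNP2. Between VNP2 and VN 3.07% were higher and 2.1% lower.

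Over all 6 role lists without IL11 and IL6R, 58 of 68 genes could be tested. On VN 20 were lower and none higher, beside 9.41% of all genes lower and 5.81% higher, with a median log2 difference of -0.16. These 20 include SOCS7, which differed by -0.02 ± 0.05 on the authors' values (limma, adjusted p = 0.826). On VNP2 22 were lower and 2 higher, beside 9.13% of all genes lower and 7.45% higher, with a median of -0.15. Between VNP2 and VN 5 were higher and 3 lower, beside 3.07% of all genes higher and 2.1% lower. The median was -0.0034 beside -0.0026 over all genes. The count of lower genes depended on the 2 Matrigel libraries: it was smaller on VN and VNP2 without Matrigel replicate 2, and on VNP2 without Matrigel replicate 3. The share of all genes called in those fits is not given here. A drop in these lists therefore cannot be told from a general loss of calls. In those fits the lone Matrigel library is assumed to vary like the other groups.

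Markers of other cell types moved with the substrates too. The summed normalised counts of 6 astrocyte markers ranged from 12722 to 13275 on Matrigel, 7520 to 8053 on VN and 9131 to 9730 on VNP2, with GFAP, AQP4 and ALDH1L1 under 10 counts per library on average. Most of this sum was GJA1 (11611 ± 386, 6576 ± 235 and 7733 ± 326, SD, n = 2, 3 and 3), the 1 astrocyte marker called lower on each coating, while SLC1A3 was called higher on VNP2. The sum of 6 neuron markers ranged from 14288 to 14950 on Matrigel, 20430 to 21322 on VN and 22985 to 24946 on VNP2. The sum of 8 mesenchymal markers was 49259 to 51157 on Matrigel, 45960 to 48612 on VN and 39610 to 40557 on VNP2. The mesenchymal sum followed COL1A1 (24749 ± 1739, 17053 ± 1460 and 9339 ± 296, SD, n = 2, 3 and 3), while more mesenchymal markers were called higher than lower, 3 against 2 on VN and 5 against 2 on VNP2. Of the 6 neuron markers, 4 were called higher on VN and 5 on VNP2, and none lower. For scale, calls in the higher direction against Matrigel made up 5.81% of the 18201 genes for VN and 7.45% for VNP2. Calls in the lower direction made up 9.41% for VN and 9.13% for VNP2.

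The OPC marker sum was 4433 to 4514 on Matrigel, 5280 to 5433 on VN and 5494 to 5711 on VNP2. Of 5 OPC markers tested, 2 were called higher on VN and 5 on VNP2, and none lower. Neural progenitor markers summed to 192569 to 196675 on Matrigel, 154112 to 159615 on VN and 165340 to 166585 on VNP2. Neural crest markers summed to 5101 to 5269, 6025 to 6476 and 6671 to 6751, and pluripotency markers to 5814 to 6176, 4604 to 4738 and 4340 to 4577, in the same order. Of 5 neural crest markers tested, 1 was called higher on VN and 3 on VNP2, and none lower. Endothelial markers summed to 1640 to 1755, 1601 to 1628 and 1578 to 1598, with PECAM1 and VWF under 10 counts per library on average. Most of this sum was KDR, which was not called on either coating, nor was CLDN5. TEK and CDH5, with mean normalised counts of 191 and 21.4, were called lower on each coating. Of 6 blood cell markers, 5, PTPRC included, averaged under 10 counts, and the 3 in the authors' table summed to 16.2 to 28.3 in every library. The neural progenitor sum was mostly VIM and NES, called lower on each coating, while HES5 was called higher on VN and FABP7 on VNP2. Of 6 pluripotency markers, LIN28A alone was called on VN, lower, and the list's median log2 difference there was 0.16. On VNP2 3 were called lower and 1, DPPA4, higher. The shares of all genes called are given above with the neuron markers. The part of these cell types in the differences of the 8 genes was not tested.

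Finally, the genes whose pattern over the 8 libraries was most like that of IL11 and IL6R were listed, among 14379 tested genes with a mean normalised count of at least 50. For IL11 the 5 highest Pearson correlations of log2(count + 1) were UFD1, UPP1, BDNF, FGFBP3 and LNPEP, at 0.994 to 0.995. BDNF, which encodes a neurotrophin, had 138 and 167 normalised counts in the Matrigel libraries, 31.0, 21.4 and 36.8 in the VN libraries, and 27.6, 18.5 and 17.2 in the VNP2 libraries. Like IL11 it was several-fold lower in each of the 6 other libraries than in the Matrigel libraries. Among the members, the correlation with IL11 was 0.975 for STAT3, 0.973 for SOCS3, 0.892 for IL6ST, 0.789 for LIF, 0.108 for IL6R and -0.75 for LIFR, and OSMR was below the count limit.

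For IL6R the highest values were those of PCDHGA10 (0.961), OLFM3 (0.959), BAALC (0.959), GRIN2A (0.944) and CMTM3 (0.942). GRIN2A, which encodes an NMDA receptor subunit, had mean normalised counts of 412 on Matrigel, 275 on VN and 488 on VNP2. BAALC had 661, 452 and 720. Both shared with IL6R the order VN, Matrigel, VNP2. PCDHGA10 shares its last exons with the other protocadherin gamma genes, so its counts are uncertain. With 8 libraries in 3 groups, any gene that differs between the same groups gives a high correlation, so these values are a description.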

How the data were processed

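PolyA RNA of OPCs from H9 was sequenced with a stranded kit, paired-end. The authors trimmed reads with TrimGalore and quantified transcripts with Salmon on GENCODE 32 (GRCh38.p13 per the labels). They deposited, per transcript and library, estimated counts, TPM and effective lengths. They also deposited a table of gene counts normalised in DESeq2 1.27.12 after tximport, a signal on the scale of counts, of 23350 genes.

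Here 205225 of 226608 transcripts were matched to genes of GENCODE 29, the annotation at hand, holding 98.8% to 98.9% of counts. Gene sums of the estimated counts, rounded, were tested in edgeR 4.0.16 (quasi-likelihood, TMM, length offsets, filterByExpr with a minimum count of 10, all 8 libraries, no replicate block), with Benjamini-Hochberg adjustment over 18201 genes and a threshold of 0.05. limma 3.58.1 on log2(deposited value + 1) was an alternative, as were DESeq2 1.42.0 and others. On simulated counts for VNP2 minus VN over 17961 genes, 198 of 200 changed genes and 8 unchanged genes were called. The changed genes were drawn from the more abundant ones, at levels above those of LIF, IL6R and OSMR. All were given a change of the same size, larger than that fitted for STAT3, IL6ST or LIFR. The rate therefore does not carry over to these 6 genes. Levels are from the authors' table.

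The members, gene lists and tests were chosen with earlier results of these data known. Named were the 8 members, at most 6 called genes per list, direction and comparison, and the 5 genes most like IL11 and IL6R. Intervals of 95% are 1.96 SE either side. Some listed genes are not reported here by name and are not drawn.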

Additional observations from a re-analysis of the deposited data

How the results depend on the processing

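Every tested member kept the direction of its called differences under all alternatives run, which were DESeq2, other normalisation, filters and length handling, a replicate block, the pair alone, limma on the deposited values and each library left out. In these planned fits, 282 of 300 member results kept their side of the threshold. With the limma fits of IL6ST that were added after seeing the data, the count was 309 of 327. Replicate numbers did not pair the samples: deviations of same-numbered libraries correlated at -0.13 to 0.16. With a replicate block the called members stayed at 5 on VN, 6 on VNP2 and 1 between VNP2 and VN, while 16 pathway genes in place of 20 were called lower on VN, and 20 in place of 22 on VNP2. With at least 50 counts in every library LIF and OSMR were not tested, and 3 members were called on VN. Without length offsets no member was called between VNP2 and VN, 1 pathway gene was higher on VN and 5 were lower between VNP2 and VN. With only the pair fitted no member was called between VNP2 and VN; the cause of these shifts was not tested.

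Leaving out 1 library gave 4 to 6 called members on VN, 4 to 6 on VNP2, 0 to 1 between VNP2 and VN and 4 to 6 across substrates. Pathway genes called lower ranged from 11 to 19 on VN, 10 to 23 on VNP2 and 1 to 5 between VNP2 and VN. Those called higher ranged from 0 to 1, 2 to 2 and 2 to 6, and those called across substrates from 13 to 27. The shares of all genes called in these fits are not given here, so these ranges cannot be read as particular to the pathway. The percent of variation in the share of IL11-201 that lay between groups was 61.4, and 53.3 to 96.6 without 1 library. Depth limits OSMR, IL6R and LIF, with 20 to 179 estimated counts per library.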
